A study of Arabidopsis thaliana with 12 samples.

Results

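The comparison described here is that of the *brat1nrpe1* double mutant with the *nrpe1* single mutant of *Arabidopsis thaliana*, which asks what the loss of BRAT1 does to transcript levels where silencing by RNA polymerase V is already absent. The libraries were chosen by genotype alone, 3 of *brat1nrpe1* and 3 of *nrpe1*, and make up 6 of the 12 RNA libraries of the study. The other 6 are 3 of the *brat1* single mutant and 3 of the wild type (Columbia ecotype). They show the wild-type level and where the same mutation acts differently when NRPE1 is present. Their values also enter the choice of tested genes and the spread used in the tests. All plants were whole seedlings grown on plates for 10 days. The *brat1* allele was the T-DNA insertion *brat1-1* and the *nrpe1* allele was *nrpe1-11*, 1 allele for each gene, and the double mutant came from a cross. Poly-A RNA was sequenced, and the level of each gene is its FPKM, the number of fragments per kilobase of transcript, scaled to the fragments mapped in the library.

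In plants, transposons and repeats are kept silent by RNA-directed DNA methylation (RdDM), in which transcripts of RNA polymerase V guide a DNA methyltransferase to its targets. NRPE1 is the largest subunit of polymerase V, so that RdDM targets lose methylation and many are expressed in *nrpe1*. BRAT1 is a nuclear protein with a bromodomain, a module that binds acetylated histones, and an AAA-type ATPase domain. It acts against silencing together with its partner BRP1. A locus that is released in *nrpe1* is therefore a place where the need for BRAT1 can be seen without RdDM.

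The mutated genes behaved as the labels say. *BRAT1* (AT1G05910) had an FPKM of 3.11, 2.67 and 2.79 in *brat1nrpe1*, against 10.8, 9.69 and 9.70 in *nrpe1*, a log2 difference of -1.78 (standard error 0.095, adjusted p = 0.00013 from limma). *NRPE1* (AT2G40030) was low in both genotypes, with 1.10, 1.10 and 1.02 in *brat1nrpe1* and 1.42, 1.32 and 1.29 in *nrpe1*, while the wild type had 5.01, 4.14 and 4.16. Transcripts of both genes were reduced rather than absent, and the FPKM does not show which part of the transcript remained.

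The replicates were not alike. Among the 22645 genes tested, the log2 values of replicates 2 and 3 differed with a standard deviation of 0.473 in *brat1nrpe1* and 0.463 in *nrpe1*, whereas those of replicates 1 and 2 differed with 1.2 and 1.21. Libraries of the same number moved together: the deviations from the genotype mean correlated at 0.824 for replicate 1 of *brat1nrpe1* with replicate 1 of *nrpe1*, 0.625 for replicate 2 and 0.630 for replicate 3. Replicate 2 of 1 genotype with replicate 3 of the other gave 0.582 and 0.601. The values thus set replicate 1 apart and hardly tell replicates 2 and 3 from each other. The smallest values, which step by the worth of 1 read, put replicate 1 at 2.25 times the depth of replicate 2 in *brat1nrpe1*. On the same scale replicates 1, 2 and 3 of *nrpe1* lay at 2.04, 0.914 and 0.901. The labels do not say whether replicates came from separate plantings, so that p-values measure the spread between these libraries. The 8 photosynthetic genes that mark green seedlings summed to an FPKM between 45978 and 47155 in *brat1nrpe1* and between 45149 and 45912 in *nrpe1*. The 8 root markers summed to between 121 and 158 in *brat1nrpe1* and between 121 and 139 in *nrpe1*, and none of the 16 genes was listed at 0.

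For the tests limma was run on log2(FPKM + 0.1). A gene passed the threshold when its P before adjustment was less than 0.01 and its log2 difference was more than 1 in size. In *brat1nrpe1* relative to *nrpe1*, 79 genes were lower (0.349% of those tested) and 36 were higher (0.159%). At an adjusted p under 0.05, 20 were lower (0.0883% of those tested) and 6 were higher (0.0265%). In each of the 79 and 36 genes the libraries of the 2 genotypes did not overlap, which held for 3.91% of all tested genes in the lower and 4.2% in the higher direction. A fit that blocked on replicate number called 118 genes lower and 66 higher, including 75 of the 79 and 33 of the 36, and at an adjusted p under 0.05 these counts were 71 and 38. The counts moved with the replicate left out. Without replicate 1, 150 genes were lower and 100 higher, without replicate 2 these were 49 and 18, and without replicate 3 they were 42 and 14. With each replicate left out in turn, 29 lower and 7 higher genes passed in every one of the 3 fits. Without replicate 2 or without replicate 3 none of the 79 and 36 genes had an adjusted p under 0.05. That of *BRAT1* was 0.23 and 0.5 in these fits. The called genes were mostly weakly expressed. The median FPKM over the 6 libraries was 0.649 for the lower and 0.670 for the higher genes, against 10.3 over all tested genes. The log2 scale with 0.1 added understates the change of such genes.

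The first group of lower genes was close to silent in the wild type, expressed in *nrpe1* and close to silent again in *brat1nrpe1*. Apart from AT3G33528, those named here reached the mean FPKM of 0.1 needed for testing only through *nrpe1*. They could hardly be other than lower, so that their p-values are not independent evidence of a direction. The difference with the greatest size was that of AT3G32240, annotated as a pseudogene on chromosome 3 from 13209736 to 13212216 in TAIR10.1. Its FPKM was 0.279, 0 and 0.0781 in *brat1nrpe1*, against 46.0, 23.2 and 22.9 in *nrpe1* (log2 difference -7.27, standard error 0.45, adjusted p = 0.00029). In *brat1* it had 0.0221, 0 and 0, against 0.0212, 0 and 0 in the wild type, so that the transcript was near 0 in each genotype but *nrpe1*. AT3G33528, a protein-coding gene on chromosome 3 (14082640 to 14084346) that the study followed by its locus, had 0.0870, 0.0981 and 0.214 in *brat1nrpe1* and 3.79, 3.53 and 3.27 in *nrpe1* (log2 difference -4.00, adjusted p = 0.0055). Its mean in the wild type was 0.171 ± 0.0797 (SD, n = 3), and the *brat1nrpe1* libraries lay within the range of the wild-type values or just below it. The pseudogene AT2G13860 (listed as its first isoform) had 0.0271, 0.0303 and 0.0328 in *brat1nrpe1*, against 0.910, 1.28 and 0.992 in *nrpe1* (adjusted p = 0.0018). AT3G32195 and AT1G36680, also pseudogenes, had log2 differences of -2.72 each, with adjusted p of 0.011 and 0.034. AT1G20795, which encodes an F-box protein, was listed at 0 in the 3 libraries of *brat1nrpe1*, of *brat1* and of the wild type, and had 0.536, 0.340 and 0.578 in *nrpe1*. AT3G43370 had the same pattern with 0.267, 1.91 and 1.09 in *nrpe1*, but its whole span is repeated almost base for base at another locus, so that its value is uncertain, and it missed the threshold without replicate 3 (log2 difference -3.10).

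Other genes were expressed in *nrpe1* and reduced to varying degrees in *brat1nrpe1*. *SDC* (AT2G17690, chromosome 2, 7682162 to 7684083), an F-box gene silenced by RdDM through repeats in its promoter, had an FPKM of 1.89, 2.33 and 2.23 in *brat1nrpe1*, against 12.6, 12.9 and 12.4 in *nrpe1*. The level in *brat1nrpe1* was 17% of that in *nrpe1* and still 8.80 times that in the wild type (0.244 ± 0.117, SD, n = 3). The log2 difference was -2.50 (standard error 0.40), with an adjusted p of 0.060, or 0.0042 with the replicate block. AT5G24240 (chromosome 5, 8230916 to 8234150), annotated as a phosphatidylinositol 4-kinase gamma-like gene and followed by the study, had 4.87, 2.99 and 3.19 in *brat1nrpe1*, against 12, 9.54 and 9.26 in *nrpe1* (log2 difference -1.48, adjusted p = 0.060, or 0.0063 with the block). *SDC* and AT5G24240 overlap a gene on the opposite strand, and strand was not marked by the library kit. The partner of *SDC*, AT2G17695, was level, with 34.9, 38.8 and 37.5 in *brat1nrpe1* and 34.3, 39.2 and 37.6 in *nrpe1*. AT3G28899, another gene followed by the study, did not pass (adjusted p = 1.0). Its FPKM was 100, 12.5 and 7.95 in *brat1nrpe1*, against 468, 48.8 and 70.5 in *nrpe1*, so that replicate 1 lay far above the others in both genotypes. With the replicate block its log2 difference of -2.43 passed the threshold, at an adjusted p of 0.078, and it also passed without replicate 1 (log2 difference -2.54).

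The bases upstream of these 3 genes are shown because CG sites, in capitals, are where methylation can be kept through DNA replication, and because the repeats through which RdDM silences *SDC* lie in its window. Each run holds the 250 bases before the annotated start of the gene, read 5′ to 3′ on the strand of the gene, from the RefSeq genome TAIR10.1. They lie at chr2:7681912-7682161 (plus strand), chr5:8234151-8234400 (minus strand) and chr3:14084347-14084596 (minus strand).
SDC: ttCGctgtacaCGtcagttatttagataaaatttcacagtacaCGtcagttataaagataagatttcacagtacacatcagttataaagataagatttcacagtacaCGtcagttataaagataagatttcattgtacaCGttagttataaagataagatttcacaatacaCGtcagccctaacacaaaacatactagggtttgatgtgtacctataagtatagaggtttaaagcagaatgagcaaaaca
AT5G24240: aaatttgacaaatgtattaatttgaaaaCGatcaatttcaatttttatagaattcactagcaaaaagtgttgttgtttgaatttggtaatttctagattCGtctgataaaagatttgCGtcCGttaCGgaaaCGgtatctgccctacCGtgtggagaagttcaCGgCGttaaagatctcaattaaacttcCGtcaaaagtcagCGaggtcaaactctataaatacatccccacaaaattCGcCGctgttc
AT3G33528: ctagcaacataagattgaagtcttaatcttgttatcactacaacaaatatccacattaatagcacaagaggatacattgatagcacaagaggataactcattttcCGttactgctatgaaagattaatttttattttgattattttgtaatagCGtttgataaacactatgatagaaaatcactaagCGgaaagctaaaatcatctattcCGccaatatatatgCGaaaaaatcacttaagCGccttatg
The *SDC* window holds 6 CG sites and 4 copies of the run agttataaagataagatttca, which was in 1 of the 22548 upstream windows of tested genes when both strands were searched. That run was picked from the *SDC* window, which is the 1 window holding it, so that the search is no test of the repeat. The AT5G24240 window holds 13 CG sites, a number that 5.4% of the windows reach, and the AT3G33528 window holds 6, which 41.8% reach. A primer that the study used to assay methylation lies in the last 2 windows. The median was 5 sites in the 79 lower genes and 5 in all tested genes, and 10 or more sites were in 6.33% of windows of lower genes and in 13.5% of all. DNA methylation itself was not analysed here.

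Further genes were high in *nrpe1* and lower in *brat1nrpe1*. AT2G01422, a non-coding RNA on chromosome 2 (183940 to 184734), had an FPKM of 3.62, 5.58 and 4.57 in *brat1nrpe1*, against 36.1, 31.0 and 30.3 in *nrpe1* (log2 difference -2.81, standard error 0.36, adjusted p = 0.019). AT5G35480 had 16.4, 25 and 19.1 in *brat1nrpe1*, against 95.5, 89.1 and 77.8 in *nrpe1* (log2 difference -2.13, adjusted p = 0.0028), and its 3 *brat1nrpe1* libraries overlapped those of the wild type, at 21.4, 30.3 and 26.9. Its divergent neighbour *MRU1* (AT5G35490), whose annotated start lies 220 bases away, had 5.59, 7.92 and 9.44 in *brat1nrpe1* and 25.1, 21.2 and 25 in *nrpe1* (log2 difference -1.65, adjusted p = 0.064, or 0.0019 with the block). Both genes of the pair thus returned to about their wild-type level, at 0.772 and 0.952 times its mean. The pseudogenes AT5G35205 and AT5G35207, separated by 137 bases, were listed at 0 in the wild type and had log2 differences of -1.20 and -1.18. Both missed the threshold without replicate 3 (-1.28 and -0.95), and AT5G35205 also without replicate 2 (-1.17). AT5G27845, a pseudogene, kept 40.6% of its *nrpe1* level, with 8.72, 8.72 and 8.83 in *brat1nrpe1* against 20.5, 22.9 and 21.3 in *nrpe1*, and the wild type was at 0.046 ± 0.0166 (SD, n = 3). It missed the threshold without replicate 2 (-1.24) or 3 (-1.3). *PUM9*, which encodes an RNA-binding protein of the Pumilio family, had 0.311, 0.550 and 0.876 in *brat1nrpe1* against 1.77, 3.08 and 2.73 in *nrpe1* (adjusted p = 0.28, or 0.0044 with the block), and missed the threshold without replicate 2 (-1.86). Among the 79 lower genes, 23 had a mean FPKM under 0.1 in the wild type, and these kept between 0 and 43.3% of the *nrpe1* level. The upper end of that range is set by the threshold on size, and the genes at 0% were listed at 0 in *brat1nrpe1*.

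**Figure D1:**
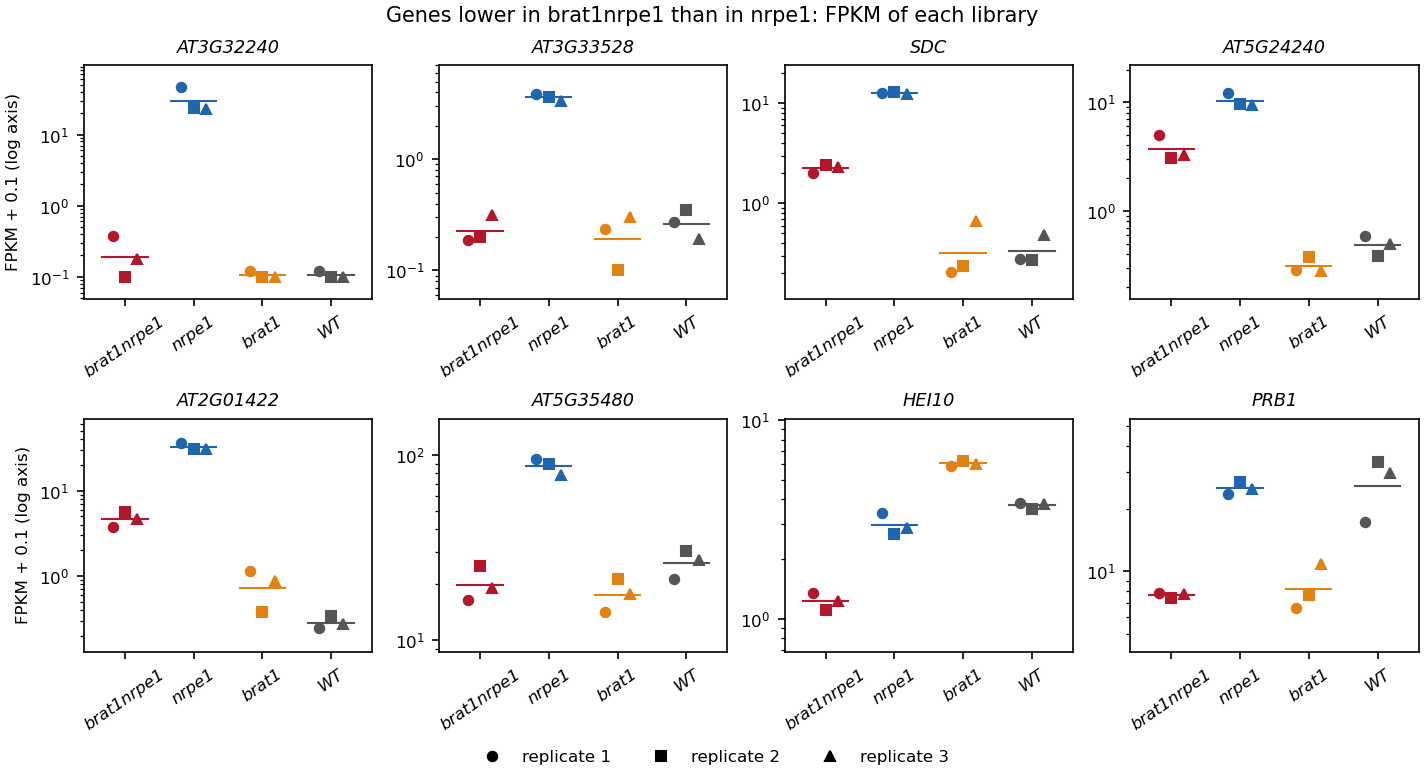
FPKM + 0.1 on a log axis for 8 genes lower in *brat1nrpe1* than in *nrpe1*, with 1 point for each library (circle, square and triangle for replicates 1, 2 and 3) and a line at the mean of the log values, for *brat1nrpe1*, *nrpe1*, *brat1* and the wild type. AT3G32240 stands high in *nrpe1* alone, *SDC* at 1.89 to 2.33 in *brat1nrpe1* lies between *nrpe1* and the wild type, and *PRB1* is low in both genotypes that carry *brat1*.

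Another group of lower genes was expressed in the wild type and in *nrpe1* alike, and was lower wherever *brat1* was present. *PRB1* (AT2G14580), a basic pathogenesis-related protein, averaged an FPKM of 7.59 ± 0.197 in *brat1nrpe1* and 25.1 ± 1.63 in *nrpe1* (SD, n = 3 each, log2 difference -1.71, adjusted p = 0.034). In *brat1* relative to the wild type its difference was -1.65. *MAP1B* (AT3G25740), a methionine aminopeptidase, which trims the first residue from new proteins, averaged 3.23 ± 0.485 in *brat1nrpe1* and 9.60 ± 0.796 in *nrpe1* (SD, n = 3 each). Its log2 difference was -1.55 (adjusted p = 0.0024), and it was -1.52 between *brat1* and the wild type. AT5G64110, a peroxidase gene, had 16.0, 15.1 and 15.7 in *brat1nrpe1* and 39.1, 36.8 and 37.2 in *nrpe1* (adjusted p = 0.0051). AT4G13495, the most abundant of the lower transcripts, is a non-coding RNA that overlaps other annotated genes on its strand. It had 51.0, 75.1 and 73.2 in *brat1nrpe1* against 170, 164 and 167 in *nrpe1* (log2 difference -1.35, adjusted p = 0.23, or 0.0032 with the block), and missed the threshold without replicate 2 (-1.46) or 3 (-1.43). AT5G05060, which encodes a protein of the cystatin superfamily, had 13.0, 10.1 and 10.2 in *brat1nrpe1* and 41.2, 25.2 and 24.1 in *nrpe1* (adjusted p = 0.15, or 0.00019 with the block), and missed it without replicate 2 (-1.44). A near-identical copy covers 39.3% of the span of AT5G05060. *FDM2* (AT4G00380), whose product belongs to the family of RdDM factors that bind double-stranded RNA, averaged 1.68 ± 0.119 in *brat1nrpe1* and 3.89 ± 0.297 in *nrpe1* (SD, n = 3 each).

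Lower genes of this kind also lay side by side. On chromosome 5, 4 neighbouring loci (AT5G34790, AT5G34795, AT5G34800 and AT5G34810, from 12966080 to 12975438), all annotated as pseudogenes, were lower in *brat1nrpe1*. AT5G34800 had 0.0133, 0.0298 and 0 in *brat1nrpe1*, against 0.660, 0.747 and 0.696 in *nrpe1* (adjusted p = 0.0013). AT5G34795 and AT5G34810 were listed at 0 in the 3 *brat1nrpe1* libraries, against 0.446 to 0.777 and 0.262 to 0.401 in *nrpe1*. AT5G34790 missed the threshold without replicate 1 (log2 difference -1.11) or 3 (-1.92), and AT5G34810 without replicate 3 (-2.02). In *brat1* relative to the wild type the log2 differences of the 4 loci lay between -1.99 and -1.84. On chromosome 3 the pseudogenes AT3G21010, AT3G21020 and AT3G21030, separated by 518 and 641 bases, had log2 differences of -1.35, -2.0 and -1.78. AT3G21010 missed the threshold without replicate 2 (-0.92), AT3G21020 without replicate 2 (-1.69) or 3 (-2.13), and AT3G21030 without replicate 1 (-1.60) or 2 (-1.73). AT3G51070 and AT3G51075 overlap on opposite strands and their reads cannot be told apart. Their differences were -1.09 and -1.39, and both missed the threshold without replicate 2 (-1.08 and -1.65) or 3 (-1.08 and -1.28).

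A few genes responded to *brat1* in opposite or unequal ways in the 2 backgrounds. The test was the difference of the differences, *brat1nrpe1* minus *nrpe1* against *brat1* minus wild type. It passed the threshold below 0 for 41 genes (0.181% of those tested) and above 0 for 23 (0.102%), with 4 and 1 at an adjusted p under 0.05. With the replicate block the counts were 75 and 40, and 5 each at an adjusted p under 0.05. Without replicate 1, 2 or 3 they were 146 and 97, 14 and 13, and 11 and 6. *HEI10* (AT1G53490), a RING protein required for meiotic crossovers, had 1.25, 1.01 and 1.13 in *brat1nrpe1*, against 3.31, 2.59 and 2.76 in *nrpe1*. It had 5.82, 6.14 and 5.94 in *brat1* against 3.74, 3.49 and 3.70 in the wild type. Its log2 difference was thus -1.27 without NRPE1 and 0.70 with it, and the difference between them was -1.97 (adjusted p = 0.0072). The rise of 0.70 was under the threshold on size, with an adjusted p of 0.16, or 0.018 with the block. Genes that overlap *HEI10* on the opposite strand include *MRD1* (AT1G53480), at 0.122, 0.258 and 0.0635 in *brat1nrpe1* and 0.918, 0.382 and 0.260 in *nrpe1*, and reads of the pair cannot be told apart. AT2G01422 was lower in *brat1nrpe1* as given above, and in *brat1* it had 1.06, 0.277 and 0.763 against 0.147, 0.237 and 0.171 in the wild type. The difference between its differences was -4.17 (adjusted p = 0.049). Its rise in *brat1* taken alone had an adjusted p of 0.74, or 0.14 with the block.

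In AT3G32240 and AT2G13860 the difference between the 2 backgrounds was -7.27 (adjusted p = 0.0072) and -3.21 (adjusted p = 0.041). Both were near 0 in *brat1* and in the wild type, where no fall could be seen. For them this test restates the fall from *nrpe1* to *brat1nrpe1*. AT3G33528 (-3.55) and AT5G35480 (-1.56) did not pass the adjustment for this test, with adjusted p of 0.31 and 0.46, or 0.16 and 0.022 with the block. They missed the threshold, AT3G33528 without replicate 1 (-3.24) and AT5G35480 without replicate 3 (-1.63). AT2G44383, a transcribed pseudogene, had 0.221, 0 and 0 in *brat1nrpe1* against 0.729, 1.73 and 0.591 in *nrpe1*, and missed the threshold without replicate 2 (-2.08) or 3 (-2.78). In *brat1* it was 2.07 above the wild type on the log2 scale, which did not pass. *PCR1*, which encodes a membrane protein linked to cadmium resistance, had 4.13, 0.784 and 1.5 in *brat1nrpe1* and 5.18, 7.37 and 6.88 in *nrpe1*, against 3.59, 6.51 and 6.63 in *brat1* and 0.129, 1.12 and 1.17 in the wild type. Its difference between the backgrounds was -4.79, past the threshold at an adjusted p = 0.91 but not without replicate 2 (-4.43) or 3 (-4.92), while its difference between *brat1nrpe1* and *nrpe1* did not pass (adjusted p = 1.0).

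In the other direction, some transcripts were lower in *brat1* than in the wild type and were already low in *nrpe1*. *SADHU3-2*, of a family of non-autonomous retroposons, had 0.0706, 0 and 0 in *brat1nrpe1* and 0.0779, 0.0866 and 0 in *nrpe1*, against 0.0728, 0.0788 and 0 in *brat1* and 2.62, 2.12 and 2.49 in the wild type. The difference between the backgrounds was 3.78 (adjusted p = 0.13, or 0.035 with the block). AT3G06437 was likewise below 0.2 in the mutants and between 0.924 and 1.73 in the wild type. *QQS* (AT3G30720), an orphan gene that affects starch content, had 0.128, 0 and 0.158 in *brat1nrpe1* and 0.282, 0.473 and 0.322 in *nrpe1*, against 0.923, 0.573 and 0.741 in *brat1* and 7.78, 9.46 and 9.17 in the wild type. Its log2 difference was -1.32 (adjusted p = 0.47), and the levels in *brat1nrpe1* were the lowest of the 4 genotypes. *QQS* missed the threshold without replicate 1 (-1.61), 2 (-0.73) or 3 (-1.63).

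**Figure D2:**
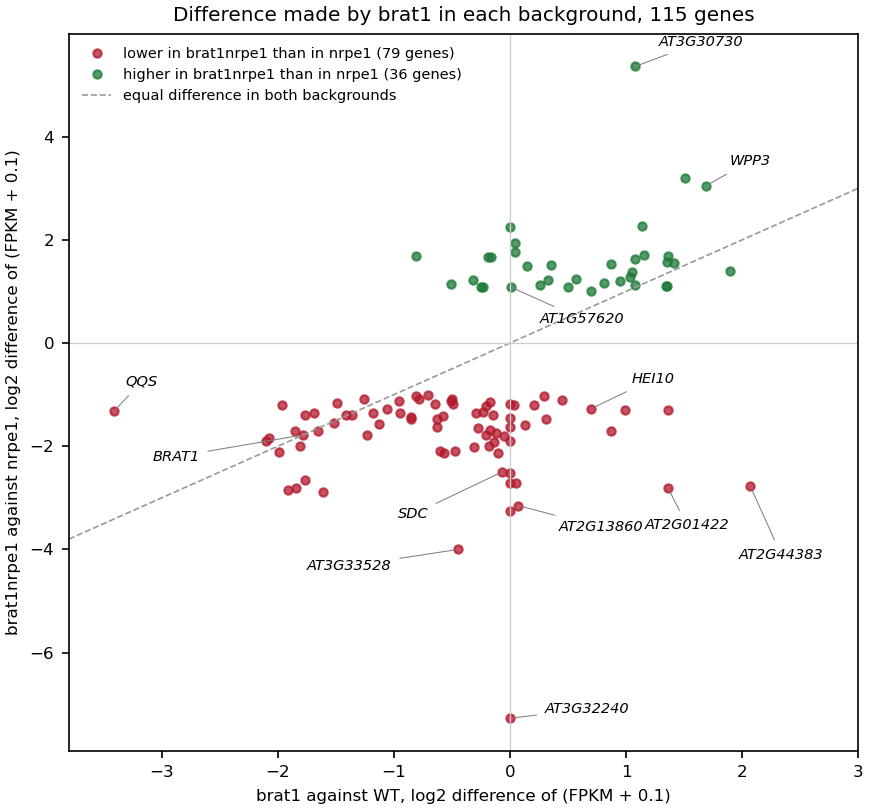
Log2 difference of (FPKM + 0.1) between *brat1nrpe1* and *nrpe1* (vertical axis) against that between *brat1* and the wild type (horizontal axis), with 1 point for each of the 79 lower and 36 higher genes and a dashed line where both differences are equal. *BRAT1* lies on the line at -1.78, AT3G32240 lies at 0 on the horizontal and -7.27 on the vertical axis, and *HEI10* and AT2G01422 lie to the right of 0 although they were lower in *brat1nrpe1*.

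The 2 comparisons share no library in their differences, but both take the spread from one fit of the 12 libraries. Their calls are set beside each other with that limit. Between *brat1* and the wild type 43 genes were lower (0.19% of those tested) and 44 were higher (0.194%). Of the 79 genes lower in *brat1nrpe1*, 22 (27.8%) were also lower in *brat1*, which is 51.2% of the 43. Of the 36 higher genes, 8 (22.2%) were also higher in *brat1*, or 8 of the 44 higher there. Calls in opposite directions were found for 2 genes, AT2G01422 and AT5G27845. Their adjusted p between *brat1* and the wild type was 0.74 and 0.46. Whether or not they passed, 57 of the 79 lower genes had a difference below 0 in *brat1*, as had 48.8% of all tested genes, and 29 of the 36 higher genes had one above 0, as had 51.1%.

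The higher gene with the greatest log2 difference was AT3G30730, a protein-coding gene on chromosome 3 (12357280 to 12358128). It had an FPKM of 4.08, 3.58 and 4.42 in *brat1nrpe1*, and was listed at 0 in the 3 libraries of *nrpe1* and in those of the wild type (adjusted p = 0.028). In *brat1* it had 0.841 in replicate 1 and was listed at 0 in the other two. The 250 bases before its annotated start (chr3:12358129-12358378, minus strand, RefSeq TAIR10.1) are shown for comparison with those of the lower genes, with CG sites in capitals.
AT3G30730: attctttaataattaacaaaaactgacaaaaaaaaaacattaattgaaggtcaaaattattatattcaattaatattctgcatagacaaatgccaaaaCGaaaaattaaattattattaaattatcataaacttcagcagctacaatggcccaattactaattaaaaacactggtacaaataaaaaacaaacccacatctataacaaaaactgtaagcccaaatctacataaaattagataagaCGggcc
This window holds 2 CG sites, a number that 88.9% of windows reach or exceed, and the 36 higher genes had a median of 4.

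Several higher genes were low in *nrpe1* and regained much of their wild-type level in *brat1nrpe1*. Both differences use the same *nrpe1* libraries, so that genes chosen as higher are low there in part by choice. AT1G57620, which encodes a p24 protein of the kind that sorts cargo between the endoplasmic reticulum and the Golgi, had 18.3, 15.7 and 15.5 in *brat1nrpe1*, against 8.04, 7.10 and 8.01 in *nrpe1* (log2 difference 1.08, standard error 0.087, adjusted p = 0.0015). It averaged 21.3 ± 0.775 (SD, n = 3) in *brat1* and 21.1 ± 0.302 (SD, n = 3) in wild-type seedlings, and the difference between the 2 backgrounds was 1.07 (adjusted p = 0.041). The level in *brat1nrpe1* was thus 0.781 times that in the wild type, and all 3 libraries stayed below the wild-type values. AT3G44970, a cytochrome P450 gene, had 6.18, 8.59 and 7.94 in *brat1nrpe1* against 2.26, 3.42 and 2.17 in *nrpe1* (log2 difference 1.51, adjusted p = 0.025), and the wild type, at 7.39, 5.81 and 5.15, overlapped *brat1nrpe1*. AT1G48580 had 1.80, 1.26 and 1.55 in *brat1nrpe1* against 0.538, 0.687 and 0.561 in *nrpe1* (adjusted p = 0.034), and the wild type averaged 1.95 ± 0.192 (SD, n = 3). *SYP125*, a syntaxin, had 0.528, 0.792 and 0.518 in *brat1nrpe1* against 0.155, 0.0863 and 0.0882 in *nrpe1* (adjusted p = 0.034). The cytokinin-activating enzyme gene *LOG6* and *NAC061*, a transcription factor gene, also passed, with log2 differences of 1.93 and 1.67. *LOG6* missed the threshold without replicate 2 (1.52) or 3 (1.77), and *NAC061* without replicate 1 (1.71) or 3 (1.13) and with the block. In *nrpe1* relative to the wild type, the log2 differences of *SYP125*, *LOG6* and *NAC061* were -1.1, -1.82 and -1.43. None of these had an adjusted p under 0.05, so that a loss in *nrpe1* is not established for them.

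*ROS1* (AT2G36490), the DNA glycosylase that removes methylated cytosine, moved in the same way by less than the threshold on size. It had 4.76, 3.64 and 3.66 in *brat1nrpe1*, against 2.56, 1.88 and 1.83 in *nrpe1*, and the libraries did not overlap. The log2 difference was 0.92 (standard error 0.16, adjusted p = 0.080, or 0.00052 with the block). *ROS1* was far higher in the genotypes with NRPE1, averaging 20.4 ± 2.50 (SD, n = 3) in *brat1* and 15.7 ± 0.974 (SD, n = 3) in wild-type seedlings. Its level in *brat1nrpe1* was 192% of that in *nrpe1* and 0.256 times that in the wild type. Other genes of active demethylation differed little. The log2 differences were 0.05 for the histone acetyltransferase gene *IDM1*, -0.04 for the RNA-binding protein gene *ROS3* and 0.03 for *BRP1*, each at an adjusted p of 1.0.

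Other higher genes were higher in both genotypes that carry *brat1*. *WPP3* (AT5G27940), a member of a family of nuclear envelope proteins, had 1.28, 1.09 and 1.19 in *brat1nrpe1*, against 0.0589, 0 and 0.134 in *nrpe1* (log2 difference 3.05, adjusted p = 0.0069). It had 1.05, 0.717 and 1.36 in *brat1* and 0.211, 0.308 and 0.222 in the wild type. *AOX1C*, an alternative oxidase of mitochondria, averaged 1.01 ± 0.118 in *brat1nrpe1* and 0.262 ± 0.0492 in *nrpe1* (SD, n = 3 each, adjusted p = 0.072, or 0.0095 with the block), and missed the threshold without replicate 2 (1.45). AT4G12490, a lipid-transfer protein gene, had 16.3, 14.0 and 14.5 in *brat1nrpe1* against 9.20, 5.87 and 6.10 in *nrpe1*, and 26.9, 18.1 and 18.9 in *brat1* (adjusted p = 0.10, or 0.00063 with the block). It missed the threshold without replicate 2 (1.03) or 3 (1.03). *PRXCA*, a cell wall peroxidase and the most abundant of the higher genes, had 81.3, 61.2 and 65.2 in *brat1nrpe1* and 49.4, 28.6 and 28 in *nrpe1* (log2 difference 1.01, adjusted p = 0.20, or 0.018 with the block). It fell under a log2 of 1 without replicate 2 (0.97) or 3 (0.91).

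**Figure D3:**
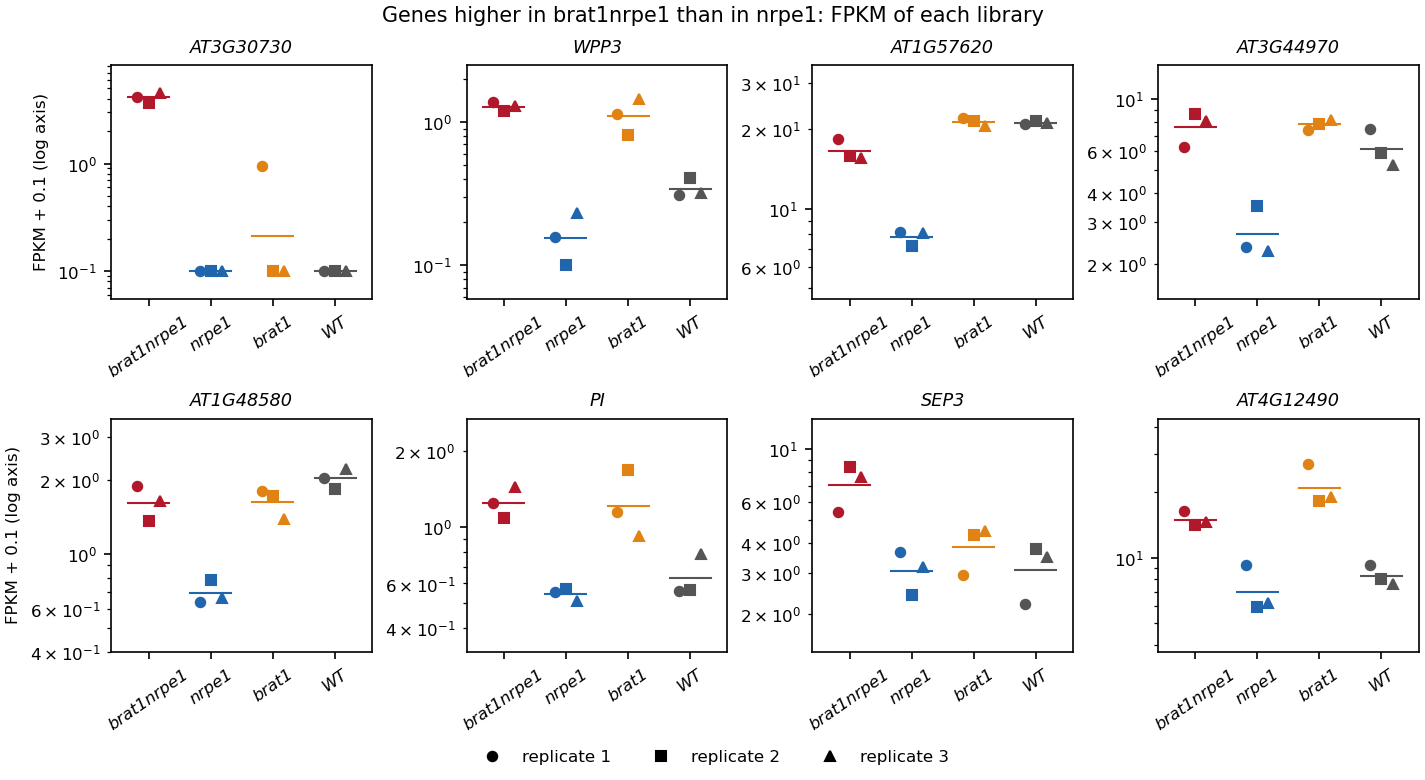
FPKM + 0.1 on a log axis for 8 genes higher in *brat1nrpe1* than in *nrpe1*, with 1 point for each library (circle, square and triangle for replicates 1, 2 and 3) and a line at the mean of the log values, for *brat1nrpe1*, *nrpe1*, *brat1* and the wild type. AT3G30730 is at 0 in *nrpe1* and the wild type, AT1G57620 is low in *nrpe1* only, and *WPP3*, *PI* and AT4G12490 stand higher in *brat1* than in the wild type as well.

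Genes with known roles in flowers or gametes, chosen after their values were seen apart from *GEX2*, moved in both directions. *SEP3*, a MADS-box factor that specifies floral organs, had 5.34, 8.31 and 7.56 in *brat1nrpe1* against 3.58, 2.30 and 3.08 in *nrpe1* (adjusted p = 0.29, or 0.024 with the block), and missed the threshold without replicate 2 (0.92) or 3 (1.19). *PI*, which specifies petals and stamens, had 1.15, 0.984 and 1.34 in *brat1nrpe1* against 0.453, 0.469 and 0.411 in *nrpe1* (adjusted p = 0.19, or 0.039 with the block), and missed it without replicate 1 (1.21) or 3 (1.05). *AGL6*, a related factor, was higher by 1.55 and the gamete gene *GEX2* by 2.26, with adjusted p of 0.56 and 0.42. *AGL6* missed the threshold without replicate 1 (1.85), 2 (1.34) or 3 (1.46), and *GEX2* without replicate 1 (2.35) or 3 (1.48). The gamete fusion gene *HAP2* was lower, with 0.143, 0.0267 and 0.0580 in *brat1nrpe1* against 0.263, 0.407 and 0.208 in *nrpe1* (adjusted p = 0.71). *HAP2* missed the threshold with the block (adjusted p = 0.15) and without replicate 1 (-1.48), 2 (-0.77) or 3 (-1.29). The list of 5 flower and pollen markers, *PI* among them, summed to between 1.96 and 2.54 in *brat1nrpe1* and between 0.74 and 1.0 in *nrpe1*, with at most 1 of the 5 listed at 0 in a *brat1nrpe1* library and 1 or 2 in an *nrpe1* library. Of its 4 tested members 1 was higher, against 0.159% of all tested genes, and 2 were with the block. None of the 12 tested floral regulators passed. The part of young flower buds in these values was not tested. The seed storage markers were at 4.76 in replicate 1 of *brat1nrpe1* and between 0.17 and 0.746 in the other 5 libraries.

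The lower genes differed from the tested genes in annotation and position. Annotated pseudogenes, which in RefSeq include transposon genes, made up 2.01% of the tested genes and 31.6% of the lower genes, that is 25 of 79, against 2 of the 36 higher genes. Of the 456 pseudogenes tested, 5.48% were lower and 0.439% higher. The median log2 difference over all 456 was -0.09, against 0.00 over the 21578 protein-coding genes. Windows around the centromeres were set by hand at 12 to 18, 1 to 7, 11 to 17, 1 to 6 and 9 to 15 Mb on chromosomes 1 to 5. They held 8.44% of the tested genes, 50.6% of the lower set and 22.2% of the higher set. Both features met in the pericentromeric pseudogenes, of which 10.2% (20 of 197) were lower and 1 was higher. The filter bears on these shares, because a gene that reached it only through *nrpe1* could hardly be other than lower. Without the *nrpe1* libraries the mean FPKM was under 0.1 for 18 of the 79 lower genes and for 139 of the 22645 tested genes. It was under 0.1 for 13 of the 25 lower pseudogenes and for 12 of the 20 in the pericentromeric windows, which leaves 8 lower among 176 pericentromeric pseudogenes. Likewise 2 of the 36 higher genes reached the filter only through *brat1nrpe1*. Protein-coding genes of the chromosome arms were lower in 29 and higher in 26 of 19925 cases. Near-identical copies and overlaps touch these counts, since 11 of the called genes have a copy of at least 98% identity over 100 bases, 4 over more than 50% of their span, and 16 overlap a gene on the opposite strand.

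**Figure D4:**
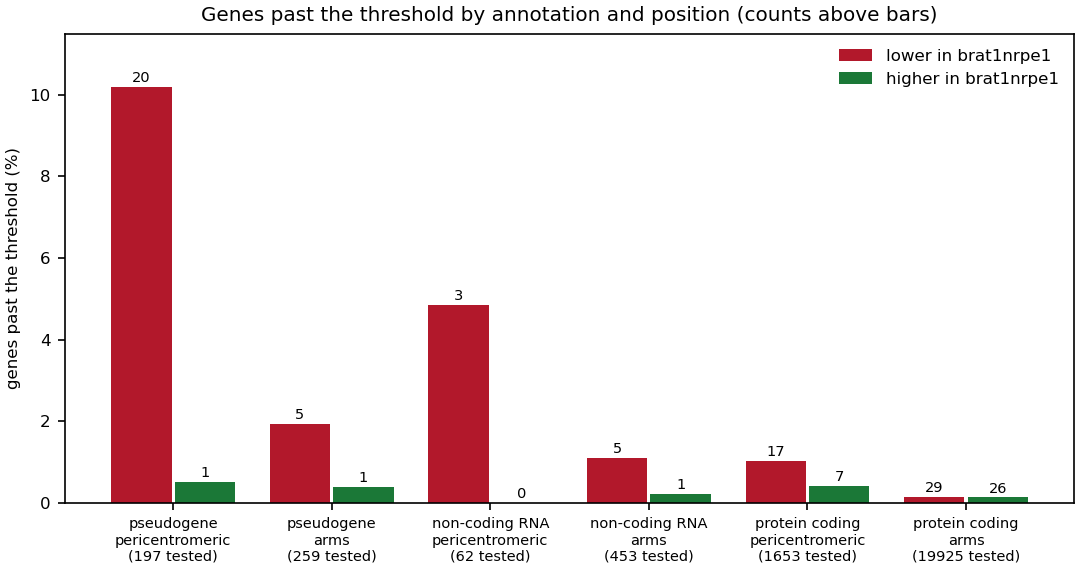
Share of tested genes past the threshold (percent) by RefSeq annotation and by position in the pericentromeric windows or the arms, with bars for genes lower and higher in *brat1nrpe1* than in *nrpe1*, and the number of genes above each bar. Pericentromeric pseudogenes reach 10.2% lower, including 12 genes that reached the filter only through *nrpe1*, and protein-coding genes of the arms are under 0.2% in both directions.

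The lists of genes that the study drew from its own comparisons were followed into *brat1nrpe1*. Of the 111 genes listed as increased in *nrpe1*, 94 were tested, 24 were lower in *brat1nrpe1* (25.5%, against 0.349% of all tested genes) and none was higher (0.159% of all). The median log2 difference was -0.82 over these 94 genes and 0.00 over all tested genes. That list was chosen on the same *nrpe1* libraries, so that its members are high there in part by choice, and their count is not independent evidence of a direction. For the 90 of them that were over 1 above the wild type on the log2 scale, the median share of this rise that was lost in *brat1nrpe1* was 33.7%. The loss was over 50% in 27 genes and over 90% in 8, while 13 stood higher in *brat1nrpe1* than in *nrpe1*.

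The list of genes reduced in *brat1* rests on the *brat1* and wild-type libraries. These are not in the difference tested here, but they entered the filter and the spread of the fit. Of the 40 listed genes, 39 were tested and 20 were lower in *brat1nrpe1* (51.3%, against 0.349% of all tested genes), *BRAT1* among them. Their median difference was -1.27, none was higher, and 2 had a difference above 0. Without replicate 3 the count of lower members was 12. It was 15 with the 6 libraries of *brat1nrpe1* and *nrpe1* alone, which then set the spread. Examples that did not follow were *GPT2*, a glucose 6-phosphate transporter of plastids, at -0.05 and AT3G57730 at 0.04. Of the 42 genes listed as increased in *brat1*, all tested, 4 were higher (9.52%, against 0.159% of all tested genes) and 1 was lower (2.38%, against 0.349%) in *brat1nrpe1*, with a median of 0.40. The 4 were AT4G12490, AT1G59860 (a small heat shock protein), AT1G04660 and AT3G29000 (a calcium-binding protein). Without replicate 2 none of the 42 genes passed as higher, and without replicate 3 the count was 1. Of the 614 loci named for hypermethylated regions of *brat1*, 478 were tested and the only one lower was *BRAT1* itself (0.209%, against 0.349% of all tested genes). None was higher (0.159% of all tested genes were), and their median was 0.00.

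**Figure D5:**
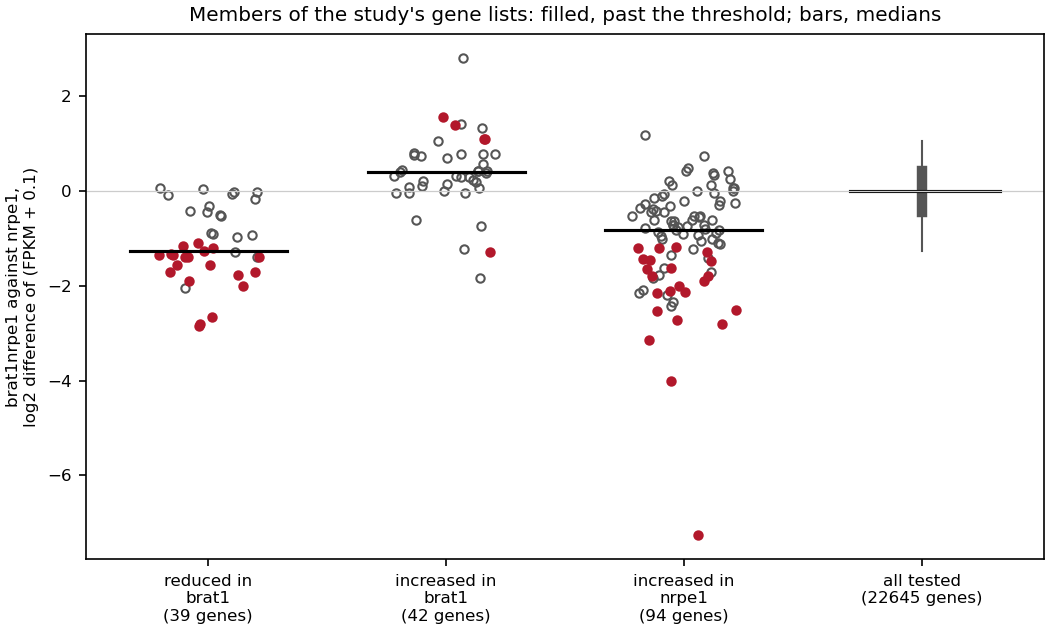
Log2 difference of (FPKM + 0.1) between *brat1nrpe1* and *nrpe1* for the tested members of 3 gene lists of the study, with 1 point for each gene (filled where past the threshold) and a bar at the median, beside all tested genes (thick line from the 5th to the 95th percentile, thin line from the 1st to the 99th). Medians are -1.27 for genes reduced in *brat1*, 0.40 for genes increased in *brat1* and -0.82 for genes increased in *nrpe1*.

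Lists of genes from known pathways held few called members. Of all tested genes 0.349% were lower and 0.159% higher, and lists this short would hold few or none at those shares. Of 33 genes of DNA methylation and RdDM, none passed in either direction, the differences ranged from -0.78 to 0.30 and the median was 0.01. Of 17 genes of demethylation and anti-silencing, *BRAT1* alone passed, with a median of -0.02. The circadian clock (15 genes), endoplasmic reticulum stress (10), cold and dehydration (12), jasmonate (15), flavonoid (10) and flowering (12, *FLC* and its relatives among them) lists had no gene past the threshold, and with the block 1 gene passed in each of the cold, flowering and flavonoid lists. Their medians lay between -0.06 and 0.43. The flavonoid list had the highest of these medians, and its 10 genes were all above 0, from 0.12 to 1.18. Its highest member was *PAP1*, the MYB factor that turns on anthocyanin genes, with 3.71, 2.09 and 1.94 in *brat1nrpe1* against 2.31, 0.758 and 0.602 in *nrpe1* (log2 difference 1.18, adjusted p = 1.0, or 0.043 with the block).

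Defence genes did not move together. Of 27 salicylic acid and pathogenesis-related genes, 1 was lower (*PRB1*) and 1 was higher (3.7% each, against 0.349% and 0.159% of all tested genes). The median was 0.06, while the median of the same genes was 0.81 between *brat1* and the wild type. The higher one was *FMO1*, an enzyme of systemic acquired resistance, with 0.665, 0.710 and 0.848 in *brat1nrpe1* against 0.506, 0.155 and 0.237 in *nrpe1* (adjusted p = 0.57). It missed the threshold without replicate 2 (0.91) or 3 (1.0). *PR1*, the marker of the salicylic acid response, had 7.38, 6.13 and 4.86 in *brat1nrpe1* and 32.9, 8.52 and 10.1 in *nrpe1*, a log2 difference of -1.22 that did not pass (adjusted p = 0.97), while it was 2.32 higher in *brat1* than in the wild type. Its difference between the 2 backgrounds was -3.54, past the threshold at an adjusted p of 0.47 but not without replicate 3 (-3.59). The defensin gene *PDF1.2c* had 4.41, 8.5 and 11.8 in *brat1nrpe1* against 1.84, 2.93 and 2.25 in *nrpe1* (log2 difference 1.69, adjusted p = 0.71), and it missed the threshold without replicate 2 (1.78) or 3 (1.36). Of 11 heat shock genes tested, 1 was higher (9.09%, against 0.159% of all tested genes), and the median was 0.36. The higher gene was AT1G59860, with 2.79, 3.95 and 3.14 in *brat1nrpe1* against 1.09, 1.74 and 1.66 in *nrpe1* (adjusted p = 0.40, or 0.0053 with the block). It missed the threshold without replicate 2 (1.08) or 3 (1.2).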

How the data were processed

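RNA levels were measured in whole seedlings of 4 genotypes, 3 libraries each, grouped by the genotype labels. The authors mapped uniquely aligned reads to the TAIR10 genome and deposited 1 table of FPKM values per gene, and the submitters' processing notes name TopHat2 2.0.12, Bowtie, Cufflinks 2.0.1 and Cuffdiff. Whether strand was used in counting is not given in the sources used here. Read counts per gene were not analysed here, and the relative depths given above come from the steps of low values. The paper lists the total and mapped reads of each library, which were not used for these depths. An FPKM of 0 can be a failed estimate, and is given as listed at 0.

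From these values log2(FPKM + 0.1) was fitted with limma 3.58.1 (R 4.3.3) as 4 genotype means over the 12 libraries, with a mean-variance trend, for the 22645 of 34133 listed genes whose mean FPKM reached 0.1. Of those left out, 7776 were at 0 in every library. Adjusted p-values are Benjamini-Hochberg values over all tested genes. The fit was tested on simulated data. The main fit had no replicate block, so that its counts and p-values do not use a pairing. In the fits with a block, same-numbered libraries were taken as paired. This was done because their deviations from the genotype means correlated at 0.824, 0.625 and 0.63 for replicates 1, 2 and 3. Replicates 2 and 3 also correlated with each other (0.582 and 0.601). Blocked values are given where they change a call. Gene positions and upstream sequences came from RefSeq TAIR10.1, to which 22549 tested genes matched, and copies were searched with BLAST 2.17.0. Tables and figures were made with Python 3.11.15, numpy 2.4.6, pandas 2.3.3 and matplotlib 3.10.9.

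Named genes were the mutated genes, genes that the study names, the 12 lower and 12 higher with the largest difference, the 5 each way with the highest FPKM, the 5 each way with the largest difference between backgrounds, adjacent called genes and called members of the pathway lists. All members and lists were chosen with earlier results of these data known. *HEI10*, *MRD1*, *QQS*, *MAP1B*, *FDM2*, *PUM9*, *SEP3*, *PI*, *AGL6*, *HAP2*, *AOX1C*, *PR1*, *PAP1*, *GPT2*, AT1G20795, AT1G48580, AT5G27845, AT2G17695, AT1G04660, AT3G29000 and AT3G57730 lie outside that rule or were chosen after their values were seen. Among the genes under the rule, AT5G39120 (log2 difference -2.89) and AT4G07820 (-2.66) were lower and are not described above. The same holds for AT1G70185 (3.19), AT1G43205 (2.24), AT1G30190 (1.71), AT4G05497 (1.68) and AT5G47130 (1.66), which were higher. AT1G70185 missed the threshold without replicate 1, 2 or 3, AT1G43205 without 1 or 2, and AT4G07820 without 3. AT1G30190, AT4G05497 and AT5G47130 missed it without replicate 2 or 3. Alternatives changed the pseudocount, the filter, the scaling, the block, the moderation, the libraries fitted and the replicates kept.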

Additional observations from a re-analysis of the deposited data

Results flagged for a closer look

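These 5 values are given again because the effect of *brat1* differed between the *nrpe1* and the wild-type background by the test of that difference itself, at an adjusted p under 0.05 in limma. The log2 difference between the backgrounds was -7.27 for AT3G32240 (adjusted p = 0.0072) and -3.21 for AT2G13860 (adjusted p = 0.041), both near 0 outside *nrpe1*. In these genes no fall could be seen with NRPE1 present. The test there restates the fall from *nrpe1* to *brat1nrpe1* and cannot show a dependence on the background. The difference between the backgrounds was -4.17 for AT2G01422 (adjusted p = 0.049) and -1.97 for *HEI10* (adjusted p = 0.0072). Both were lower in *brat1nrpe1* than in *nrpe1* and higher in *brat1* than in the wild type. The rise in *brat1* taken alone had an adjusted p of 0.74 for AT2G01422 and 0.16 for *HEI10*, so that a reversal is not established. The difference between the backgrounds was 1.07 for AT1G57620 (adjusted p = 0.041), which was higher in *brat1nrpe1* than in *nrpe1* and level between *brat1* and the wild type. With the replicate block the adjusted p of AT2G13860 was 0.07, and the other 4 stayed under 0.05. Without replicate 1 that of AT2G01422 was 0.06, and the other 4 stayed under 0.05. Without replicate 2 or without replicate 3 none of the 5 had an adjusted p under 0.05. The lowest was 0.25, for AT2G01422 without replicate 2. Before adjustment all 5 passed the threshold in each of these fits.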

How the results depend on the processing

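Counts are given in the order of genes lower and higher in *brat1nrpe1* than in *nrpe1* (79 and 36), differences between backgrounds below and above 0 (41 and 23), lower members of the *nrpe1*-increased and *brat1*-reduced lists (24 and 20) and higher members of the *brat1*-increased list (4). With a pseudocount of 1 they were 24, 9, 21, 9, 15, 8 and 2. With a mean FPKM of at least 1 the first 6 were 30, 12, 16, 14, 10 and 13. At an adjusted p under 0.05 they were 20, 6, 4, 1, 9, 6 and 0. With the mean of replicates 2 and 3 as 1 sample they were 51, 17, 18 and 11, and 0 for the last list. With the replicate block 66 genes were higher, and 75 and 40 differed between backgrounds. With the 6 libraries alone 76 were lower and 33 higher, and with the block as well 57 were higher. Leaving out 1 replicate gave ranges of 42 to 150, 14 to 100, 11 to 146, 6 to 97, 16 to 34, 12 to 18 and 0 to 6. No called direction reversed. Of the named log2 differences that did not pass, *IDM1* was -0.05 without replicate 3 and 0.05 with it and AT3G06437 was 0.22 without replicate 2 and -0.17 with it. The cause of the shifts was not tested. Of the 57 named genes 48 were called. The call was lost in 28 with a pseudocount of 1, in 6, 20 and 23 without replicate 1, 2 or 3, and in 1 with the block. In 21 of the 48 it was kept whichever replicate was left out. Rescaling to a common upper quartile changed no named call. Low FPKM values and 3 replicates limit the precision.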
